A study of Mus musculus with 27 samples.

Results

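The genes described here are 10 genes of surface ectoderm and epithelium, taken by name out of the 23279 genes listed: Epcam, Cdh1, Krt8, Krt18, Krt5, Krt14, Trp63, Esrp1, Cldn6 and Sp8. They were followed through 26 of 27 mRNA libraries of mouse cells in 9 groups. ES–FLB and ES–HLB cells were forelimb and hindlimb bud mesenchyme induced in aggregates of the ES cell line EB5 Hand2::GFP +/-, in which 1 Hand2 allele carries the reporter. These cells were sorted for the reporter on day 9 of culture. The other groups were unsorted tissue of Slc:ICR embryos: forelimb and hindlimb buds at E10.0 (early FLB and early HLB) and E10.5 (E10.5 FLB and E10.5 HLB), and branchial arch (BA), tail bud (TB) and cardiac tissue (Ca) at E10.5. Ages are those of the labels, but the study's text puts early FLBs at a younger stage than early HLBs, so limb type and stage cannot be told apart wherever these groups are compared or each serves as the reference. Forelimb aggregates were given retinoic acid and hindlimb aggregates, at a later time, an antagonist of it, so limb type and agent cannot be told apart between ES–FLB and ES–HLB cells. By the study's methods, both types were also given BMP4 and Matrigel, and later hydrocortisone, a BMP inhibitor and Wnt3. The BMP inhibitor and Wnt3 were meant to stabilize the epithelial layer. Each group had 3 libraries, except E10.5 HLB, where 1 library (replicate 2) with no values for many genes was left out and 2 remained. Sorted and unsorted ES–LB aggregates could not be compared, as the samples include no library of unsorted aggregates. The ES–LB groups come from 1 line of ES cells and differ from the embryonic tissues in strain, culture and sorting, and these cannot be told apart.

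The limb bud is a core of mesenchyme under a sheet of surface ectoderm, which thickens at the distal rim into the apical ectodermal ridge. Epithelial cells hold together through E-cadherin (Cdh1), EpCAM (Epcam) and claudins such as Cldn6, and their cytoskeleton contains pairs of a type II and a type I keratin. Krt8 pairs with Krt18 in simple epithelia, and Krt5 pairs with Krt14 in the basal layer of stratified epithelia. Trp63 encodes p63, a transcription factor required for stratified epithelium and for limb outgrowth, Esrp1 encodes a splicing factor of epithelial cells, and Sp8 encodes a zinc finger factor of limb ectoderm and of the ridge. Cdh1, Epcam, Krt8, Krt18, Esrp1 and Cldn6 are also used by other epithelia, among them endoderm, and by pluripotent cells. Hand2 is a gene of limb bud mesenchyme, so cells were kept for a mesenchymal reporter and none were removed by an epithelial one.

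Depth, estimated from the spacing of low values, was between 5543756 and 22142302 reads per library. The early limb buds were deepest, at 19642240 reads or more, and all other libraries had 8541930 or fewer. Early buds also had a smaller share of values that were whole multiples of 1 read. In comparisons with early buds, a difference in sequencing or counting therefore cannot be told apart from the other differences. The value of 3 reads was between 0.148 and 0.543 scaled CPM, that is, reads of a gene per 1000000 reads after scaling between libraries. Hand2 was at 141 to 164 scaled CPM in ES–FLB cells, at 222 to 245 in ES–HLB cells, and at 78.8 to 113 in early limb buds, and was 0.83 ± 0.11 (log2, SE) and 1.11 ± 0.05 higher in ES–FLB and ES–HLB cells than in early buds of the same limb type. As the cells were kept for the Hand2 reporter, these differences are not independent of the sort. Unsorted E10.5 FLBs, at 147 to 156, overlapped with ES–FLB cells, and E10.5 HLBs were at 127 to 149. Hand2 was at 128 to 185 in BA and 143 to 159 in Ca. All fold changes below are log2 differences of scaled CPM + 0.5, fitted with limma over all genes tested, with the p-value adjusted by Benjamini-Hochberg. Without the scaling, the median gene was 0.22 higher in ES–FLB cells against early FLBs and 0.16 higher in ES–HLB cells against early HLBs (log2), so levels are relative to the other RNA of a library. In bulk RNA, fewer cells of a type and less RNA per cell cannot be told apart.

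The genes lie on several chromosomes (GRCm38, RefSeq positions). Krt8 (chr15:101996711-102004342), Krt18 (chr15:102028216-102032026) and Krt5 (chr15:101707069-101712905) share chromosome 15, and Krt14 is at chr11:100203162-100207510. Epcam (chr17:87635979-87651127) and Cldn6 (chr17:23679348-23682446) are on chromosome 17. Cdh1 is at chr8:106603350-106670247, Trp63 at chr16:25683763-25892088, Esrp1 at chr4:11331933-11386783 and Sp8 at chr12:118846288-118852578. All 10 are protein coding, and values are per gene, over its exons. Krt8 has a pseudogene, Krt8-ps, and shares 271 bases with a lincRNA of the opposite strand, and Esrp1 shares 11021 bases with another. Trp63 shares 921 bases with a processed pseudogene of the same strand, and Krt5 and Trp63 each overlap a small RNA gene of the opposite strand. Counts of these genes are uncertain to the extent that reads were divided between them.

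Promoters of 7 of the 10 genes were found in RefSeq sequence of GRCm38.p6, as windows from 250 bases before to 50 bases after the start of the gene. Those of Epcam and Cldn6, which were lower in sorted cells than in early buds of both limb types, of Krt8, which was lower in the forelimb pair, and of Krt5, which was lower in neither, are shown so that members that parted can be compared by sequence. The window listed for Krt14 begins within the gene and is not shown. Capitals mark CACCTG on either strand, the E-box core bound by Snai and Zeb repressors, the only motif searched that was found in these 4 windows.
Epcam, chr17:87635729-87636028, plus strand: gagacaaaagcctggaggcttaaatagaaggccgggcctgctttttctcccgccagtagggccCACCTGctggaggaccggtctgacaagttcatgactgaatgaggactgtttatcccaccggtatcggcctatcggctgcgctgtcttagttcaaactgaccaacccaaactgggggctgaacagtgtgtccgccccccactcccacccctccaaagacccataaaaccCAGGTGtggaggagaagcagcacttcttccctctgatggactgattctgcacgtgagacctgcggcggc
Cldn6, chr17:23679115-23679414, plus strand: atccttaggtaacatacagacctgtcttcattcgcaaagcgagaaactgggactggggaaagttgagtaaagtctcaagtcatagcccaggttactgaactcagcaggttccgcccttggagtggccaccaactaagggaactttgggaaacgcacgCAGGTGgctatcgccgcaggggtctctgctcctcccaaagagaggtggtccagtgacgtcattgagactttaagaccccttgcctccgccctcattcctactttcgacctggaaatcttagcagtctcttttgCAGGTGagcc
Krt5, chr15:101712856-101713155, minus strand: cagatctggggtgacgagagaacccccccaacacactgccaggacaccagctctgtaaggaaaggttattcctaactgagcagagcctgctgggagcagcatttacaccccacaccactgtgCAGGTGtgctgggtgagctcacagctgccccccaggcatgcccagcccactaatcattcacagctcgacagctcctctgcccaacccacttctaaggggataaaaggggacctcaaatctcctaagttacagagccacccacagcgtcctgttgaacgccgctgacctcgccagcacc
Krt8, chr15:102004293-102004592, minus strand: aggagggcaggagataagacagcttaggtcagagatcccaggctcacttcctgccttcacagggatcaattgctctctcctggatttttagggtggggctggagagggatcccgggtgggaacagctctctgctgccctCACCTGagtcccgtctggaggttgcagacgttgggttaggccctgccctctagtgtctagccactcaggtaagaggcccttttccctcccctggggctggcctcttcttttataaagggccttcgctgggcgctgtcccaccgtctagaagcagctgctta
CACCTG stood in 5 of 9 windows of these genes (Sp8 has 3 windows), against 20.2% of all 32851 windows. It stood at 2 places in each of the Epcam and Cldn6 windows, at 1 in each of Krt5, Krt8 and Krt18, and nowhere in those of Krt14 and Sp8. GCCNNNGGC, a core bound by AP-2 factors, stood in 2 of the 9 windows, those of Krt18 and 1 of Sp8 (16.6% of all windows), and AACCGGTT, a core bound by Grhl factors, in 0 of 9 (0.146% of all windows). The motifs do not overlap. A match of letters describes the window and is not a binding site.

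The members did not differ alike between sorted cells and limb buds. Trp63 and Sp8 were at a small part of the early limb bud level and Epcam, Esrp1 and Cldn6 at a larger part. Krt5 and Krt14 stood at or above the level of early limb buds. Words such as lowered, kept and left compare with embryonic buds. They do not give the share that passed the sort, as the level before the sort is not known. As percent of the mean of early FLBs, the level left in ES–FLB cells was between 3.43% for Sp8 and 243% for Krt14, with a median over the 10 genes of 25.9%. In ES–HLB cells against early HLBs it was between 5.54% for Sp8 and 486% for Krt14, with a median of 52.6%. From the lowest to the highest gene these percents spanned 70.8-fold and 87.7-fold, so no single share of limb bud level describes the 10 genes.

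**Figure D1:**
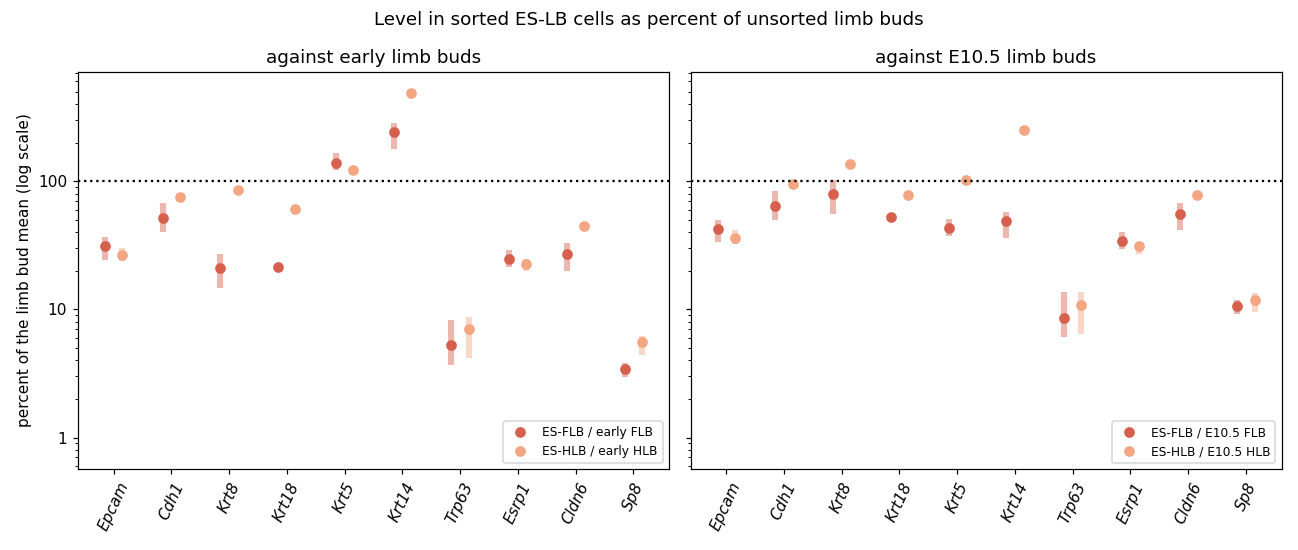
Mean level in sorted ES–LB cells as percent of the mean in unsorted limb buds of the same limb type (log axis), against early buds on the left and E10.5 buds on the right. Points are group means, bars run from the lowest to the highest sorted library, and the dotted line is 100%. Trp63 and Sp8 sit lowest in both panels, and Krt14 of ES–HLB cells highest, at 486% and 249%.

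Among the members, the transcription factors of ectoderm stood furthest below the limb buds. Trp63 was at 66.0, 67.4 and 73.8 scaled CPM in early FLBs and at 2.55, 2.60 and 5.73 in ES–FLB cells. In early HLBs it was at 52.0, 60.3 and 63.4, and in ES–HLB cells at 2.43, 4.84 and 5.15. Every sorted library was far below every limb bud library, and 1 ES–FLB library stood well above the other two. The log2 difference of Trp63 was -4.16 ± 0.30 (SE, adjusted p = 4.0e-05) in ES–FLB against early FLB and -3.73 ± 0.25 (adjusted p = 4.4e-06) in ES–HLB against early HLB, which left 5.25% and 7.06% of the level. Sp8 was at 30.3, 36.6 and 38.0 in early FLBs against 1.04, 1.22 and 1.34 in ES–FLB cells, and at 23.9, 28.7 and 33.7 in early HLBs against 1.28, 1.71 and 1.80 in ES–HLB cells. Groups did not overlap, and the differences were -4.38 ± 0.14 (adjusted p = 7.8e-14) and -3.80 ± 0.16 (adjusted p = 4.6e-11). What was left of Sp8 was above the value of 3 reads in all 6 sorted libraries.

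The adhesion and splicing genes were lowered less. Epcam was at 48.0, 54.3 and 56.7 scaled CPM in early FLBs, at 13.0, 16.9 and 19.4 in ES–FLB cells, at 53.8, 56.9 and 59.4 in early HLBs and at 13.4, 14.6 and 17.1 in ES–HLB cells. Sorted and limb bud libraries were well apart, by -1.68 ± 0.13 (adjusted p = 3.3e-07) and -1.89 ± 0.09 (adjusted p = 2.2e-10). Esrp1 kept 24.9% of the early FLB level and 22.7% of the early HLB level, at 7.01 to 9.50 in ES–FLB and 6.23 to 7.69 in ES–HLB cells against 27.5 to 35.9 in all 6 early bud libraries. Cldn6 kept 26.9% in ES–FLB cells (10.4, 14.6 and 17.1 against 47.2, 54.3 and 54.5) and 44.6% in ES–HLB cells (22.9, 24.1 and 26.6 against 51.2, 56.0 and 57.7). Cdh1, which encodes the E-cadherin used to stain epithelium, was lowered least of these 4. It was at 21.2, 24.6 and 35.5 in ES–FLB cells against 49.5, 53.8 and 53.9 in early FLBs, and at 40.6, 45.9 and 46.7 in ES–HLB cells against 55.2, 59.0 and 61.4 in early HLBs. No sorted library reached an early bud library, and the differences were -0.97 ± 0.19 (adjusted p = 0.0030) and -0.40 ± 0.07 (adjusted p = 0.00018). With the spread shared over all 26 libraries the latter had an adjusted p of 0.16.

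The 4 keratins parted by pair. Krt8 was at 81.9, 87.1 and 131 scaled CPM in early FLBs and at 14.7, 20.9 and 27.2 in ES–FLB cells, a difference of -2.24 ± 0.32 (adjusted p = 0.0023). In the hindlimb pair Krt8 was at 35.4, 38.9 and 60.0 in early HLBs and at 36.8, 38.0 and 40.2 in ES–HLB cells, and these overlapped (-0.18 ± 0.19, adjusted p = 0.41). Without the early HLB library at 60.0 the Krt8 difference was 0.04. Krt18 went with its partner, with 21.4% of the early FLB level left in ES–FLB cells and 60.6% of the early HLB level in ES–HLB cells (-2.17 ± 0.11 and -0.70 ± 0.10, adjusted p = 2.4e-09 and 2.1e-05).

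The basal pair did not fall against the early buds. Krt5 was at 20.1, 24.5 and 31.9 scaled CPM in early FLBs and at 31.2, 33.1 and 42.5 in ES–FLB cells, with the lowest sorted library inside the range of the buds. That difference, 0.49 ± 0.19, missed the threshold (adjusted p = 0.054), and passed it without the scaling, under median-of-ratios scaling, without the filter on low genes and without early FLB replicate 2 (adjusted p from 0.00065 to 0.048). In ES–HLB cells Krt5 was at 61.9, 64.8 and 66.3 against 44.4, 52.7 and 59.3 in early HLBs (0.31 ± 0.09, adjusted p = 0.0059, or adjusted p = 0.31 with the spread of all 26 libraries). Krt14 was at 2.95, 3.07 and 3.15 in early FLBs and at 5.45, 8.15 and 8.65 in ES–FLB cells, and at 2.89, 3.80 and 4.58 in early HLBs and at 16.7, 18.7 and 19.4 in ES–HLB cells. It was higher in each sorted library than in any early bud, by 1.13 ± 0.17 (adjusted p = 1.5e-05) and 2.16 ± 0.15 (adjusted p = 1.0e-08). Krt14 was the only member whose mean was highest in a sorted group among all 9 groups.

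**Figure D2:**
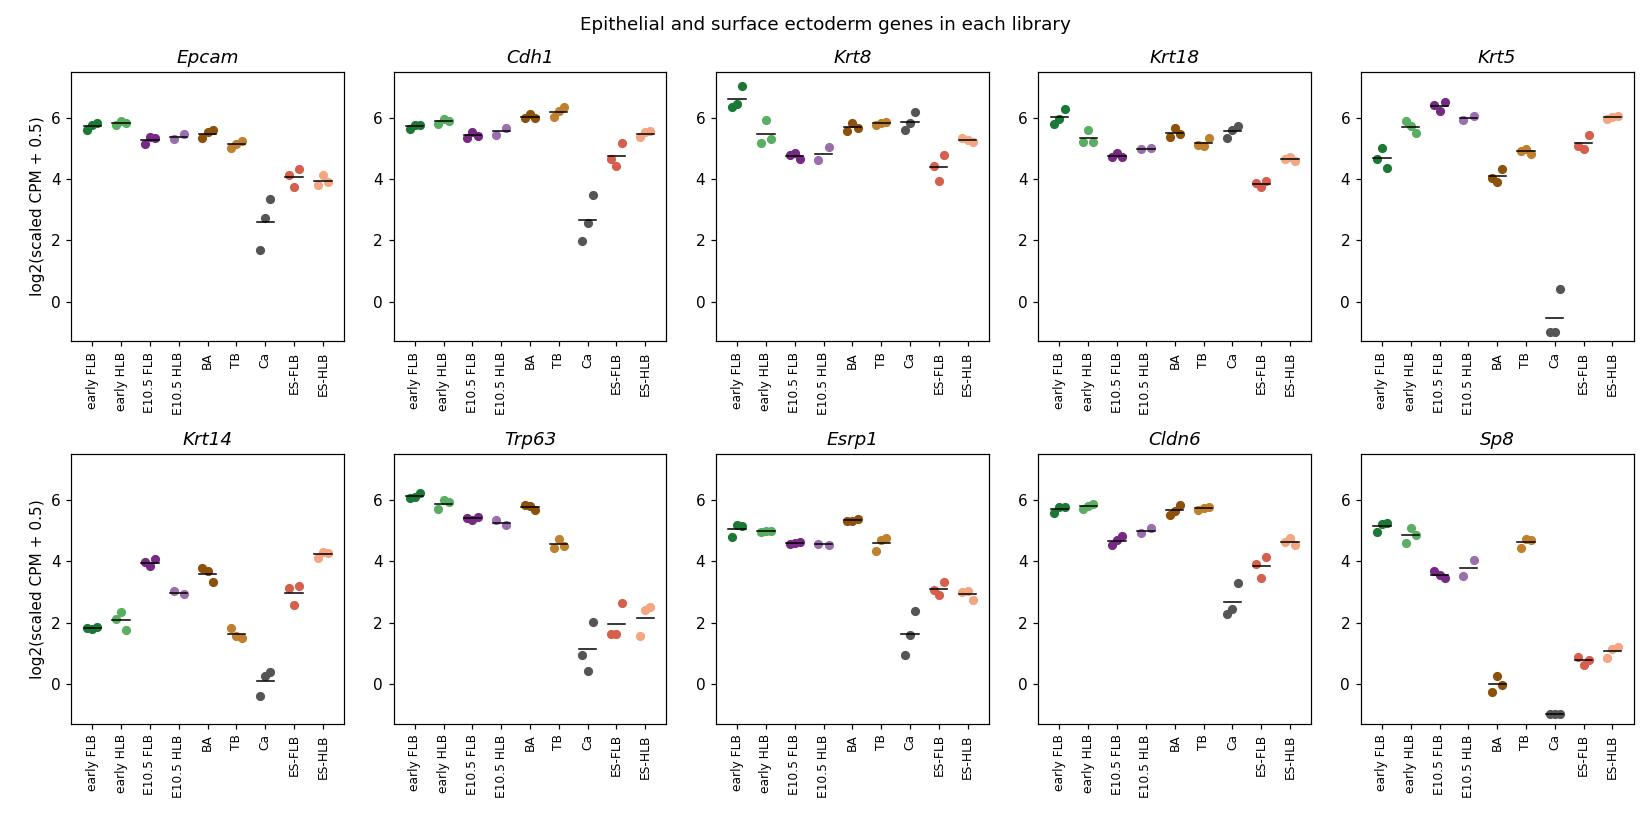
Level of each of the 10 genes, as log2 of scaled CPM + 0.5, in the 26 libraries by group. Points are libraries and lines are group means, and libraries listed at 0 sit at -1. Trp63 and Sp8 of the sorted cells lie below all limb buds, Krt5 and Krt14 lie among or above them, and cardiac tissue is lowest for 8 of the 10 genes but not for Krt8 and Krt18.

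Against early FLBs, 8 of the 10 genes passed the test as lower in ES–FLB cells and 1, Krt14, as higher. A call alone says little here, since 41.0% of the 13113 genes tested were called lower and 41.1% higher. A fall of at least 4-fold was rare, at 3.13% of the genes tested, and 4 of the 10 genes had one: Krt8, Krt18, Trp63 and Sp8. Esrp1 lay just outside (-1.94), and the number was 4 to 6 when 1 library was left out, with the 6 found without ES–FLB replicate 3. Against early HLBs, 7 genes were lower in ES–HLB cells and 2, Krt5 and Krt14, higher, where 38.9% of 13178 genes were lower and 39.6% higher. There Trp63, Sp8 and Esrp1 fell by at least 4-fold, as did 2.07% of the genes tested, or 2 of the 10 without ES–HLB replicate 3. The median log2 difference over the 10 genes was -1.91 in the forelimb and -0.92 in the hindlimb pair, against 0.01 for all genes in each. Without the scaling the part of all calls that were higher was 62.4% in place of 50.1% in the forelimb pair and 60.6% in place of 50.4% in the hindlimb pair, and the number of members called lower was again 8 and 7.

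The stage of the buds changes this picture for the keratins, as the same sorted libraries were also set against E10.5 buds. There 9 genes were lower in ES–FLB cells, where 36.3% of 13174 genes were, and only Krt8 had no call (-0.38 ± 0.19, or -0.58 with adjusted p = 0.00018 without ES–FLB replicate 3). Krt5 was at 73.4, 85.0 and 90.8 scaled CPM in E10.5 FLBs, above all ES–FLB libraries, and Krt14 at 13.8, 15.2 and 16.2, so both were lower in ES–FLB cells (-1.22 ± 0.11 and -1.0 ± 0.16, adjusted p = 3.1e-07 and 2.4e-06). In the hindlimb pair 6 genes were lower and 2 higher, with 34.6% of 12912 genes lower and 37.2% higher. Cldn6 was among the lower ones (-0.36 ± 0.11, adjusted p = 0.0036), but not without E10.5 HLB replicate 3 or with the spread of all 26 libraries (adjusted p = 0.073 and 0.15). Krt14 was higher in ES–HLB cells by 1.26 ± 0.15 (adjusted p = 1.8e-09), as it was at 7.05 and 7.60 in the E10.5 HLBs. Krt8 was higher by 0.45 ± 0.11 (adjusted p = 4.4e-04), or by 0.22 without E10.5 HLB replicate 1 (adjusted p = 0.093), and its adjusted p was 0.13 with the spread of all 26 libraries. Cdh1 and Krt5 of ES–HLB cells overlapped with E10.5 HLBs, at 95.2% and 102% of the level (-0.07 ± 0.09 and 0.03 ± 0.08). Trp63 and Sp8 were again the 2 genes lowered by at least 4-fold in both pairs, where 2.45% and 1.16% of the genes tested were, with 8.63% and 10.6% of the level left in ES–FLB and 10.9% and 11.9% in ES–HLB cells. With a filter at 2 CPM, Sp8 was too low to be tested in the hindlimb pair and 1 gene, not 2, remained there.

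Ratios between members within a library do not depend on the scaling, and they show how unlike the make-up of these transcripts was. They were chosen after the values were seen and carry no test. Krt5 to Trp63 was 0.37 ± 0.10 (SD, n = 3) in early FLBs, 0.90 ± 0.21 in early HLBs, 1.97 ± 0.13 in E10.5 FLBs and 1.67 ± 0.25 (n = 2) in E10.5 HLBs. In ES–FLB cells it was 10.8 ± 3.0 and in ES–HLB cells 17.3 ± 7.2, and the lowest sorted library, at 7.43, was above the highest library of any tissue, at 2.08. Cdh1 to Epcam, near 1 in all limb buds (0.950 to 1.16), was 1.45 to 1.83 in ES–FLB cells, which overlapped with BA at 1.31 to 1.58. It was 2.68 to 3.20 in ES–HLB cells, above TB at 2.06 to 2.16 and above every other library. By contrast Krt8 to Krt18 was 1.48 ± 0.35 and 1.56 ± 0.08 in sorted cells, inside the range of the means of the tissues (0.902 to 1.59), and Epcam to Esrp1 was 2.01 ± 0.15 and 2.13 ± 0.28, against 1.63 to 1.81 as means of the limb bud groups.

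**Figure D3:**
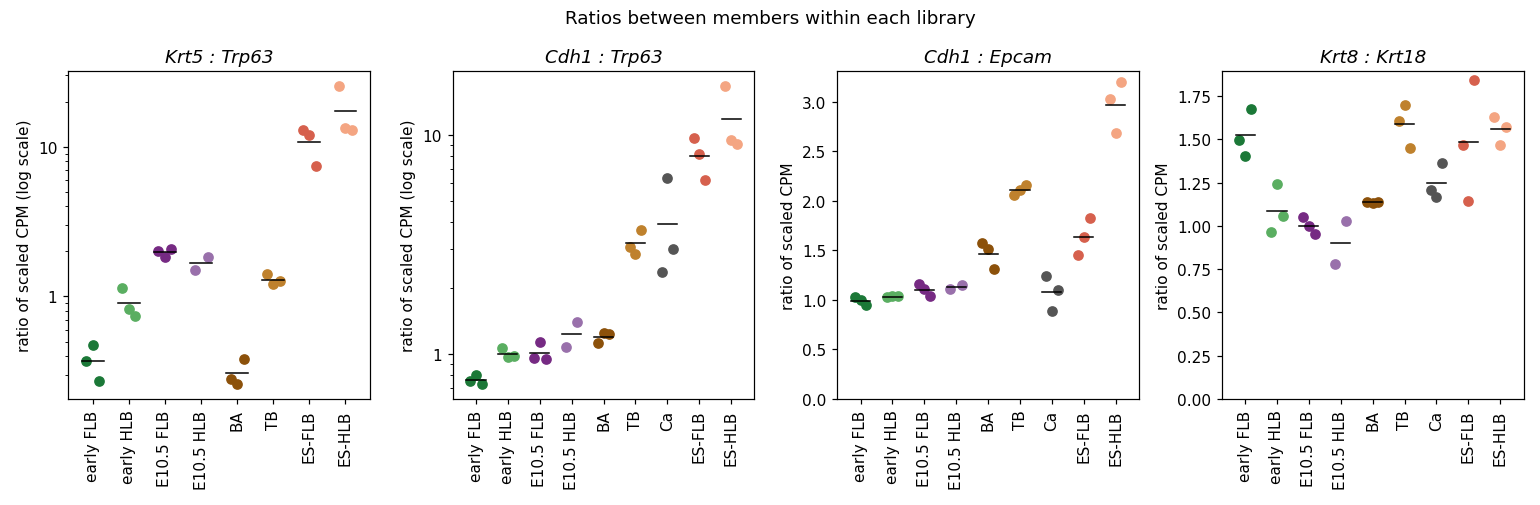
Ratio of the scaled CPM of 2 members in each library, by group, for Krt5 to Trp63 and Cdh1 to Trp63 (log axes) and Cdh1 to Epcam and Krt8 to Krt18 (linear axes). Points are libraries and lines are group means, and Ca is left out where Krt5 is listed at 0. Krt5 to Trp63 of the sorted libraries lies between 7.43 and 25.5, above every tissue library.

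The sorted forelimb and hindlimb cells differed from each other in 6 of the 10 genes, all higher in ES–HLB cells, where 13.1% of 13132 genes were higher. Krt14 was higher by 1.27 ± 0.14, Krt5 by 0.86 ± 0.09, Cldn6 by 0.81 ± 0.13 and Krt18 by 0.80 ± 0.10 (adjusted p from 3.1e-08 to 5.2e-05), and for these no ES–HLB library overlapped with an ES–FLB library. Krt8 (0.90 ± 0.22, adjusted p = 0.032) and Cdh1 (0.73 ± 0.19, adjusted p = 0.030) were near the threshold, and each missed it without ES–FLB replicate 1 or without any 1 of the 3 ES–HLB libraries (adjusted p from 0.073 to 0.12). Epcam, Esrp1, Trp63 and Sp8 had no call, with differences of -0.11 ± 0.13, -0.18 ± 0.16, 0.19 ± 0.30 and 0.30 ± 0.26. Early HLBs and early FLBs differed in 2 members, with Krt5 higher by 1.03 ± 0.19 and Krt18 lower by 0.67 ± 0.17 in the HLBs (adjusted p = 0.014 and 0.039), where 20.3% of 12503 genes were called. By the study's text the stage of these groups was not equal, so limb type and stage cannot be told apart here. Krt5 missed the threshold without early FLB replicate 1 or early HLB replicate 1 (adjusted p = 0.057 and 0.062), and Krt18 without early FLB replicate 2 or early HLB replicate 1 or 3 (adjusted p from 0.083 to 0.16). E10.5 HLBs and FLBs differed in 3, Krt14 (-0.99 ± 0.16), Krt5 (-0.39 ± 0.08) and Cldn6 (0.33 ± 0.11), where 24.3% of 12574 genes were called, and Cldn6 missed the threshold without E10.5 FLB replicate 1 or E10.5 HLB replicate 3 (adjusted p = 0.13 and 0.24). Without the scaling the part of all calls that were higher in HLBs was 61.8% in place of 46.0% at the early stage and 31.1% in place of 50.3% at E10.5.

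The difference between sorted cells and early buds itself differed between the hindlimb and the forelimb pair for 4 genes. The hindlimb difference minus the forelimb difference was 2.06 ± 0.40 for Krt8, 1.47 ± 0.17 for Krt18, 1.03 ± 0.24 for Krt14 and 0.73 ± 0.19 for Cldn6 (adjusted p = 0.0064, 1.3e-05, 0.0036 and 0.013), where 22.7% of 13615 genes were called in either direction. For Krt8 both ends contribute, as its mean was 100.1 in early FLBs and 44.8 in early HLBs. All 4 genes also changed with stage in FLBs (E10.5 minus early). Krt8 changed by -1.87 ± 0.20, Krt18 by -1.27 ± 0.11 and Cldn6 by -1.04 ± 0.09, and Krt14 the other way, by 2.13 ± 0.14. Between early HLBs and early FLBs, Cldn6 and Krt14 had no call (0.08 ± 0.07 and 0.24 ± 0.17). The limb type and the stage of the reference buds cannot be told apart here. Cldn6 did not pass with the spread of all 26 libraries (adjusted p = 0.071). Without the scaling, 44.5% of all calls were positive in place of 56.2%.

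Listed markers of pluripotent cells and of endoderm were also compared between the sorted groups. All 10 listed pluripotency genes were called higher in ES–HLB than in ES–FLB cells, where 13.1% of 13132 genes were called higher. Only 7 of the 10 could be tested between ES–FLB cells and early FLBs. The others passed the filter here through the ES–HLB libraries, so their direction was set by the filter. The summed level of the 10 was 104 to 147 scaled CPM in ES–HLB and 30.9 to 40.7 in ES–FLB cells, against 1.58 to 3.76 in limb bud libraries. Pou5f1 was at 12.3 to 19.7 in ES–HLB cells, 2.60 to 5.23 in ES–FLB cells and at most 0.364 in limb buds, and Nanog at 7.02 to 11.6, 1.95 to 3.41 and at most 0.171. Of 10 endoderm genes 2 were higher and 2 lower in ES–HLB than in ES–FLB cells, with a median log2 difference of -0.0037. Against early buds 8 of them were higher in each limb type, with a summed level of 179 to 198 in ES–FLB and 145 to 160 in ES–HLB cells and 26.4 to 101 in early buds. Only 3 of the 10 endoderm genes could be tested between early bud groups, so most passed the filter here through the sorted libraries. Foxa2 was at 2.81 to 3.78 in the sorted libraries and at 0 to 0.102 in early buds, while Sox17 was at 3.04 to 5.49 and 3.89 to 6.00. Afp was at 47.2 ± 4.7 in ES–FLB and 13.0 ± 3.3 in ES–HLB cells, Gata6 at 76.7 ± 7.8 and 66.4 ± 7.4, and Gata4 at 32.2 ± 4.6 and 11.1 ± 1.4, where the last 2 are also genes of heart and lateral mesoderm. Among the pluripotency genes, Sox2 was at 8.89 ± 2.0 and 23.3 ± 3.0, Zfp42 at 4.63 ± 0.55 and 19.6 ± 1.9, and Tfcp2l1 at 4.40 ± 0.40 and 9.76 ± 2.4. Their part in the levels of Cdh1, Epcam, Krt8, Krt18, Esrp1 and Cldn6 was not tested.

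The listed genes outside the 10 members show where the sorted cells resembled or differed from limb buds in other epithelial transcripts. Differences of these listed genes are those against early buds unless E10.5 buds are named. Of 23 tested junction and adhesion genes, 18 were lower and 3 higher in ES–FLB cells than in early FLBs, and 17 and 3 in the hindlimb pair, with median log2 differences of -1.31 and -1.01. Cdh3 (P-cadherin) was at 85.3 ± 12 scaled CPM in early FLBs and 7.96 ± 1.7 in ES–FLB cells, and at 111 ± 6.8 in early HLBs and 22.8 to 28.1 in ES–HLB cells. Dsp and Dsc2, a linker protein and a cadherin of desmosomes, went otherwise: Dsc2 was higher in sorted cells, by 0.50 ± 0.12 and 1.13 ± 0.17, and Dsp was 0.30 ± 0.07 lower in the forelimb and 0.77 ± 0.07 higher in the hindlimb pair. Cardiac tissue had more of both, with Dsp at 489 ± 30.

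Among 14 ridge and limb ectoderm genes, 10 of 11 tested were lower in ES–FLB cells and 10 of 14 in ES–HLB cells, with medians of -1.47 and -1.09. Wnt6, a ligand made by limb ectoderm, kept 2.46 ± 1.1 of 64.6 ± 5.9 scaled CPM in the forelimb pair and 2.78 ± 0.35 of 46.3 ± 2.1 in the hindlimb pair. Bambi, a pseudoreceptor of BMP and activin signals, was lowered by 1.03 ± 0.07 and 0.52 ± 0.08 against early buds. Rspo2, a Wnt agonist, was 0.26 ± 0.07 higher in ES–FLB and 1.59 ± 0.10 lower in ES–HLB cells. Against E10.5 buds Bambi stood the other way. Its means were 60.6 and 52.8 scaled CPM in ES–FLB and ES–HLB cells, and 47.5 and 43.2 in E10.5 FLBs and HLBs.

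Of 12 tested epithelial transcription and splicing factors, 5 were lower and 1 higher in ES–FLB cells, and 6 lower and 3 higher in ES–HLB cells. Tfap2c, which encodes AP-2γ, was lower by 1.75 ± 0.17 and 1.71 ± 0.11. Tfap2a, which encodes AP-2α and stains surface ectoderm and neural crest, was at 19.3 ± 1.3 in early FLBs and 18.4 ± 1.8 in ES–FLB cells, which did not pass the test (-0.07 ± 0.10, adjusted p = 0.52), and was 0.53 ± 0.09 higher in ES–HLB cells. Of the other keratin and hemidesmosome genes, 4 were higher and 5 lower in the forelimb pair and 3 and 3 in the hindlimb pair. Krt19 was at 33.3 ± 4.9 in early FLBs and 6.04 ± 1.8 in ES–FLB cells, but at 14.2 ± 3.3 in early HLBs and 30.4 ± 0.23 in ES–HLB cells, and Dst, which encodes a plakin also made outside epithelia, was higher in both, by 1.09 ± 0.08 and 1.26 ± 0.09.

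Mesenchymal genes were mostly higher in sorted cells, with 10 of 13 higher in each pair and 3 and 2 lower. The 13 include Hand2, the gene of the sorting reporter, so its place among those higher is not independent of the sort. Cdh11, a cadherin of mesenchyme, was at 115 ± 11 in early FLBs and 1013 ± 35 in ES–FLB cells (log2 difference 3.13 ± 0.06), Pdgfra was 1.73 ± 0.06 and 1.49 ± 0.04 higher and Prrx1, a homeobox factor of limb mesenchyme, 0.33 ± 0.06 and 0.60 ± 0.06 higher. Against E10.5 buds Prrx1 was lower, at means of 460 and 645 in ES–FLB and ES–HLB cells and 680 and 715 in E10.5 FLBs and HLBs. Lists of further epithelia were mixed. Of the mesothelium genes 2 were higher and 3 lower in the forelimb and 3 and 3 in the hindlimb pair, with Wt1 lower by 1.59 ± 0.15 and 2.27 ± 0.18 and Tcf21 higher by 3.27 ± 0.26 and 2.68 ± 0.39. Aldh1a2, the main enzyme of retinoic acid synthesis in the early embryo, was higher by 1.96 ± 0.06 in the forelimb and lower by 0.95 ± 0.23 in the hindlimb pair. In ES–HLB cells its mean of 30.9 was above that of E10.5 HLBs, at 20.1. Of 8 neural epithelium genes only 2 and 3 were expressed enough to be tested, and Nes was lower in both pairs, by 1.52 ± 0.06 and 1.15 ± 0.06, as was Pax3, at -3.14 ± 0.30 and -1.88 ± 0.26. Sox1 was at 0.854 to 1.80 scaled CPM in sorted cells and at most 0.109 in limb buds. Of 8 extraembryonic ectoderm and amnion genes 3 and 5 were tested, with 1 and 4 higher, and Igfbp3 was higher by 1.50 ± 0.05 and 1.93 ± 0.06. Postn, which mesenchyme also makes, was higher in the hindlimb pair (50.5 ± 41 and 368 ± 16 scaled CPM, adjusted p = 0.010), and its difference of 0.78 ± 0.36 in the forelimb pair did not pass (adjusted p = 0.11). The background of calls given above for each pair holds for all these counts.

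**Figure D4:**
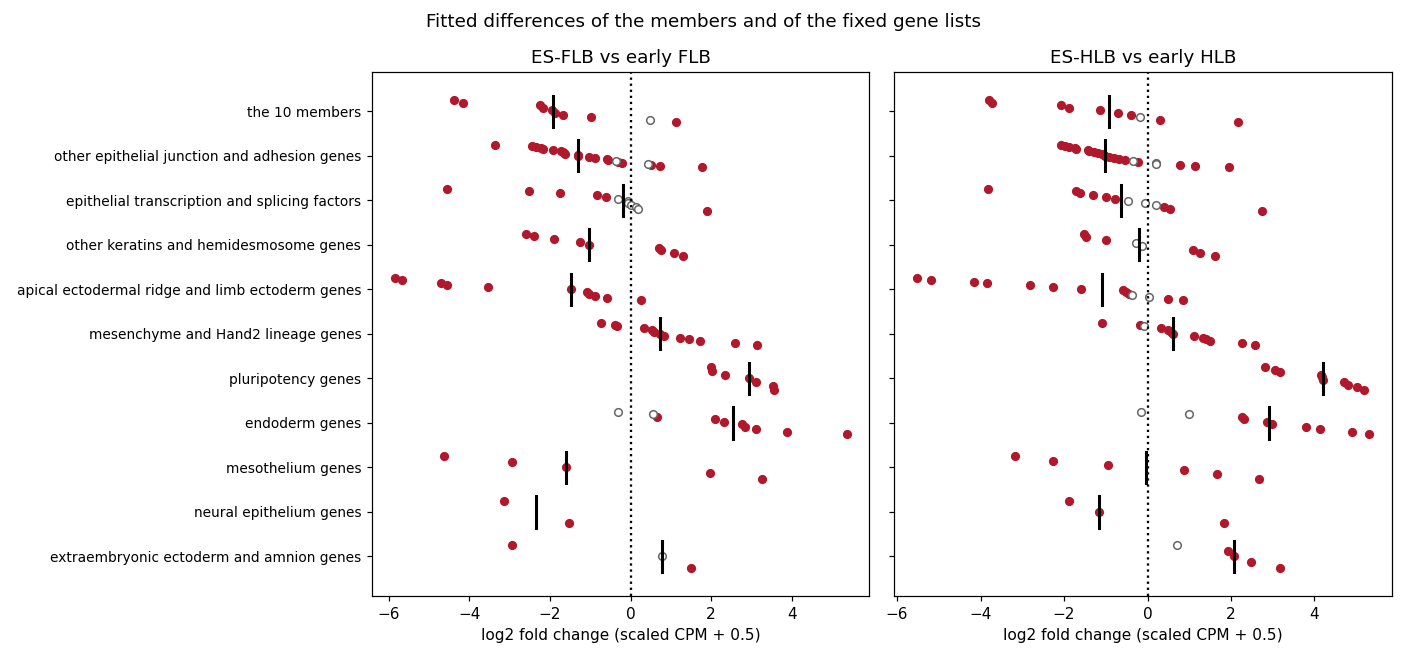
Fitted log2 fold change of each tested gene of the 10 members and of the 10 other lists, in ES–FLB against early FLB on the left and ES–HLB against early HLB on the right. Filled red points passed the test, open points did not, and black bars are medians. Points of the members and of the epithelial lists lie on both sides of 0. The pluripotency genes shown lie above 0, but were too low in buds to be tested between bud groups. They passed the filter through the sorted libraries, so their side of 0 was set by the filter.

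The members changed with stage in the embryo too. From early to E10.5 FLBs, 8 genes were lower and 2, Krt5 and Krt14, higher, by 1.70 ± 0.18 and 2.13 ± 0.14 (adjusted p = 2.7e-04 and 6.8e-10), where 34.6% of 12767 genes were lower and 30.2% higher. Krt8 and Sp8 came down most, by 1.87 ± 0.20 and 1.58 ± 0.10. In HLBs 7 genes were lower, where 16.9% of 12400 genes were, or 5 to 7 when 1 library was left out. Among the 7, Krt18 (-0.36 ± 0.12, adjusted p = 0.042) lost its call without the scaling, without the filter, with the replicate number as a block, without trend and robust estimation, and without early HLB replicate 2 or either E10.5 library (adjusted p from 0.072 to 0.21). Cdh1 (-0.33 ± 0.08, adjusted p = 0.015) lost it without trend and robust estimation and without early HLB replicate 3 or E10.5 HLB replicate 1 (adjusted p from 0.051 to 0.14). Krt14 was higher there (0.90 ± 0.21, adjusted p = 0.0083), and this call was lost when either E10.5 library was left out. With the spread of all 26 libraries 4 and 3 genes were called lower in place of 8 and 7. Without the scaling, 66.0% in place of 46.6% of all calls were higher in FLBs and 56.2% in place of 41.5% in HLBs. The E10.5 libraries were also the shallowest, at 5543756 to 5908845 reads.

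In tissues other than limb, the order of the levels differed by gene. Epcam was at 44.4 ± 3.9 scaled CPM in BA and 34.6 ± 2.7 in TB, close to limb buds, and Cdh1 was highest in TB (73.2 ± 7.6) and BA (64.8 ± 3.5), whose libraries overlapped. Sp8 separated the tissues most: 24.1 ± 2.6 in TB, 0.339 to 0.700 in BA, at about the value of 3 reads, and listed at 0 in all 3 Ca libraries. Ca had little of Epcam (6.17 ± 3.5), Cdh1 (6.47 ± 3.8), Trp63 (1.94 ± 1.4) and Esrp1 (2.87 ± 1.6), yet Krt8 at 58.8 ± 12 and Krt18 at 46.9 ± 6.6. Among the Ca libraries replicate 3 was highest for these 6 genes.

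Against BA, the mean of both sorted groups was lower for 7 genes and higher for Krt5 (1.50 ± 0.23) and Sp8 (0.92 ± 0.15), where 35.4% of 14438 genes were lower and 34.2% higher. Against TB it was lower for 8 and higher for Krt14 (1.98 ± 0.17) and Krt5 (0.68 ± 0.23), where 38.8% were lower and 37.4% higher. Against Ca it was higher for 8 and lower for Krt8 (-1.04 ± 0.19) and Krt18 (-1.31 ± 0.10), where 41.8% were higher and 39.2% lower. All 3 comparisons share the sorted libraries. Trp63 was 0.92 ± 0.28 (adjusted p = 0.0055) above Ca, but its ranges of 2.43 to 5.73 in sorted cells and 0.845 to 3.55 in Ca overlapped, and without Ca replicate 2 it was 0.57 (adjusted p = 0.074).

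Per kilobase of exon, which allows levels of different genes to be compared, early FLBs had most of Krt8 (51.1 CPM per kb) and Krt18 (45.3) and least of Krt14 (1.74). ES–HLB cells had most of Krt5 (29.3), Krt8 (19.6) and Krt18 (17.1), and least of Sp8 (0.350) and Trp63 (0.493). ES–FLB cells likewise had most of Krt5 (16.2) and least of Sp8 (0.263) and Trp63 (0.432). Over the 9 group means, Pearson's r of pairs of members on the log2 scale was above 0 for 40 of 45 pairs, with a median of 0.55. Epcam and Esrp1 were most alike (0.98), Krt8 went with Krt18 (0.90), and Krt8 and Krt14 were least alike (-0.54). For 8 of the 10 genes the lowest point is Ca, which these pairs share, and no test was made.

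Among 12701 other genes at 4 CPM or more in some group, the pattern over the 9 groups most like the mean of the members was that of Grhl2 (r = 0.993), which encodes an epithelial transcription factor. It was at a mean of 17.4 scaled CPM in limb buds and 4.92 in sorted cells. Cldn7, another claudin, was also among the 10 most alike (r = 0.987, 13.1 and 4.28). The other 8 genes, such as Sf1 (r = 0.989) and Ddx39b (r = 0.988), are in none of the lists and changed far less, with Sf1 at 419 and 345 and Ddx39b at 638 and 455, as r does not measure the size of a change. Krt8 (r = 0.28), Krt14 (0.34) and Krt18 (0.38) were the members least like the mean of the 10.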

How the data were processed

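RNA-seq was done on 27 libraries, 3 per group, with group and replicate taken from the sample titles. The authors made stranded mRNA libraries (TruSeq, single-end reads), mapped reads to mm10 with HISAT2 2.0.4, used Cuffdiff (Cufflinks 2.1.1 per the submitters' processing notes) and edgeR 3.16.2, and deposited CPM values, 1 per gene and library, summing to 1000000 in each. The strand setting of the counting is not given in the sources used here, and embryonic tissue was taken from 3 embryos and sorted cells from pooled aggregates, without a statement on which of these made which library. P-values therefore measure the spread between these libraries, which may be technical.

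Between 93.1% and 99.2% of the values of a library were whole multiples of 1 read, within 0.05 of a read, which gave the depth and the floor of 3 reads. This share was 93.1% to 93.5% in the early bud libraries and 98.9% or more in all other libraries. Floors cover counting error only. As the remaining values were not whole, count tests were not run, and the CPM were tested as such. Libraries were scaled by a trimmed mean of log ratios (30% of ratios and 5% of intensities trimmed, factors 0.904 to 1.07). A comparison covered each gene that reached 1 scaled CPM in 3 or more of its libraries, on the log2(scaled CPM + 0.5) scale, with limma 3.58.1 (trend, robust) in R 4.3.3, and p-values were two-sided and adjusted by Benjamini-Hochberg over all genes tested. A call was an adjusted p under 0.05, and a large one also at least 4-fold. Fold changes on this scale understate changes of low genes. Pairs of groups were fitted on their own libraries, the 3 other tissues on all 26. E10.5 HLB replicate 2, in which 13642 genes were at 0 against a mean of 8486.5 in its group, was left out. On simulated data of ES–FLB against early FLB (12999 genes) 98 of 100 2-fold and 100 of 100 4-fold changes were found with 7 false calls, and for the dependence on limb type (13325 genes) 62 and 99 of 100 with 7. For ES–HLB against E10.5 HLB (12993 genes) these were 89 and 100 of 100 with 17. The simulation gave all genes the same spread beyond counting error, and changed no low genes and far fewer genes than were called here. These rates need not hold for the data.

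The genes named are all 10 members; of each other list, the 2 genes highest in limb buds and the 2 highest in sorted cells; of the 10 genes most alike, 4; and Hand2, Pou5f1, Nanog, Foxa2 and Sox17, which the study used as markers. The members and lists were chosen with earlier results of these data known. Exon lengths and overlaps are from GENCODE vM21. Figures were drawn with matplotlib 3.10.9.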

Additional observations from a re-analysis of the deposited data

Results flagged for a closer look

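The difference between sorted cells and early buds differed between hindlimb and forelimb, by a test of the difference itself, for Krt8 (2.06, log2), Krt18 (1.47), Krt14 (1.03) and Cldn6 (0.73). Krt18 and Cldn6 were lower in both pairs, and more so in the forelimb pair. Krt8 was lower in the forelimb pair and had no call in the hindlimb pair (-0.18, adjusted p = 0.41). Krt14 was higher in both pairs, and more so in the hindlimb pair. The limb type and the stage of the reference buds cannot be told apart here.

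The library that was left out, E10.5 HLB replicate 2, held values above 3 reads for 9 of the 10 genes, and Cdh1 was listed at 0 there. It was set aside for its missing genes, not for the values of these 9. Krt14, at 4.11 scaled CPM in it, was below its 2 group mates at 7.05 and 7.60.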

How the results depend on the processing

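Of the single-gene differences (130 values under 36 settings in all), 1976 stayed on their side of the threshold, 51 lost the call, 26 gained one and 15 changed sign, the last only where no call had been made. Under CPM as deposited, the members called higher were 2 in place of 1 in ES–FLB against early FLB and in early HLB against early FLB, and 0 in place of 1 in E10.5 HLB against E10.5 FLB, and the median percent left was 59.2% in ES–HLB against early HLB and 84.1% against E10.5 HLB. Median-of-ratios scaling, or no filter, gave 2 higher in ES–FLB against early FLB. A filter at 2 CPM gave 1 gene at least 4-fold lower in ES–HLB against E10.5 HLB. A pseudocount of 0.1 gave 1 higher against TB. With all 26 libraries in one model, 1 gene was higher in ES–HLB against each of early and E10.5 HLB, 4 and 3 were lower from early to E10.5 FLB and HLB, 2 were lower in early HLB against early FLB, and in E10.5 HLB against FLB 0 were higher and 1 lower. Without trend and robust estimation, 2 were lower in early HLB against early FLB, and 0 higher and 1 lower at E10.5.

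Leaving out 1 library in turn, the members called higher were 1 to 2 in ES–FLB against early FLB, 1 to 2 in ES–HLB against E10.5 HLB, 0 to 2 from early to E10.5 HLB, 0 to 1 in early HLB against FLB and 0 to 1 in E10.5 HLB against FLB. Those called lower were 0 to 4 in early HLB against early FLB. The median percent left in ES–HLB against early HLB was 50.5% to 56.0%. Signs changed without 1 library, over these ranges (log2), for Krt8 (-0.33 to 0.044) in ES–HLB against early HLB, Cdh1 (-0.17 to 0.035) and Krt5 (-0.035 to 0.098) in ES–HLB against E10.5 HLB, Epcam (-0.27 to 0.013) in ES–HLB against ES–FLB, Esrp1 (-0.17 to 0.014) in early HLB against FLB, Krt8 (-0.15 to 0.30) and Sp8 (-0.029 to 0.48) in E10.5 HLB against FLB and Krt14 (-0.14 to 0.093) against BA. As deposited, Cdh1 in ES–HLB against E10.5 HLB was 0.036, and Krt14 against BA was 0.031, or 0.0054 with median of ratios and 0.0020 at pseudocount 1. The cause was not tested.

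Replicate numbers did not pair the libraries (correlations of deviations from -0.11 to 0.12). With the replicate number as a block, 2 genes were higher from early to E10.5 HLB and 3 lower in early HLB against early FLB, and 123 of the 130 single-gene calls stayed. Count tests that had been planned could not be run on these values. Depth limits Sp8 and Trp63 in sorted cells, Sp8 in BA and most of the members in Ca, whose values are closest to the floor of 3 reads.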
